A study of Saccharum hybrid cultivar with 12 samples.

Results

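The ethylene response factor (ERF) unigenes of developing sugarcane stem were c79203_g1, c85786_g1, c58672_g1, c77833_g1 and c92758_g6. They are 5 of the 163054 assembled unigenes listed in every library. They were taken as the unigenes that carry an ERF name in the figure on ethylene response factors. All 5 passed the filter on low counts that left 54433 unigenes to test. The study labelled them ERF7, ERF053, ERF073, ERF094 and ERF094, in that order, and its text does not say which database gave these names. The sequences were not analysed here, so these names could not be checked, and whether the pair named ERF094 are copies of the same gene is not known. The study showed these ERFs in a panel on the high-sugar (HS) and low-sugar (LS) genotypes. From it the study stated that most ERFs were more abundant in HS than in LS under normal conditions. It also stated that their relative increase with ethylene was larger in LS. How the ERFs were picked was not stated. Their values in HS and LS are therefore no independent evidence that ERFs as a family behave in the same way.

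Developing stem was sampled 20 cm above a node near the top of the cane, on day 7 after the spray, when plants were about 8 months old. The genotypes were the high-sugar commercial variety ROC22 (HS, 15% sucrose), the moderate-sugar YT71-210 (MS, 12.6%) and the low-sugar GT86-887 (LS, 6%), each of them a single clone grown from stem cuttings. Controls received water (HS_CK, MS_CK and LS_CK), and treated plants received 400 mg per L of an ethylene solution made from ethephon, which releases ethylene inside the plant (HS_T, MS_T and LS_T). With 2 biological replicates in each of 6 groups there were 12 libraries, and a difference between genotypes is one between 3 clones. Nothing in the labels says whether the replicates came from separate field plots, so p-values measure the spread between these libraries. Library totals lay between 19765600 and 28747100 counts. In every group the spread between replicates exceeded counting error (chi-square over its degrees of freedom, 6.33 to 23). The values come from whole tissue, in which fewer cells that express a gene and less RNA per cell cannot be told apart. Because the files give no gene names, markers of stem tissue were not analysed here.

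Ethylene is perceived by membrane receptors, and the signal passes through the protein EIN2 to transcription factors of the EIN3 family, which switch on ERF genes. ERF proteins bind short DNA elements such as the GCC box through their AP2/ERF domain, and some activate their targets while others repress them. In Arabidopsis, ERF7 is a repressor that acts in responses to abscisic acid and drought, and ERF053 takes part in responses to drought and salt. Arabidopsis ERF073 belongs to the group of ERFs that accumulate when oxygen is low, and Arabidopsis ERF094, known as ORA59, joins ethylene and jasmonate signals in the activation of defence genes. Whether the sugarcane unigenes have these roles was not tested.

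The 5 unigenes differed widely in abundance. On the FPKM scale (fragments scaled by unigene length and by the mapped fragments of the library, as deposited), c79203_g1 (ERF7) had a mean of 68.6 over the 12 libraries, above 95.4% of the tested unigenes. The means of the others were 7.13 for c92758_g6 (ERF094), 5.97 for c77833_g1 (ERF094), 4.07 for c85786_g1 (ERF053) and 1.71 for c58672_g1 (ERF073). Of the summed FPKM of the 5, c79203_g1 made up between 37.3% in the first MS_T library and 90.8% in the second HS_CK library. The sum itself ran from 7.83 FPKM in the first LS_CK library to 222.5 in the first HS_T library.

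In LS, c79203_g1 (ERF7) had 3.38 and 20.1 FPKM in the first and second water libraries and 132 and 66.3 in the ethephon libraries. In MS it had 62.3 and 80.6 FPKM with water and 5.11 and 5.48 with ethephon, and in HS 38.7 and 140.5 with water and 183 and 84.99 with ethephon. The libraries from MS_T and LS_CK were the low ones, and all other libraries were above them. The HS_T, LS_T, HS_CK and MS_CK groups, in falling order of their means, each overlapped with the next, and so did LS_CK with MS_T. Replicates of this unigene lay far apart in LS_CK, where the normalised count (CPM, counts scaled to the library size) of the second was 5.95-fold that of the first, a gap exceeded by 0.329% of the tested unigenes, and in HS_CK, where the gap was 3.80-fold.

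The values of c85786_g1 (ERF053) were far lower but had the same low groups. In LS it had 1.87 and 0.60 FPKM with water and 6.52 and 3.40 with ethephon. In MS it had 5.92 and 9.43 FPKM with water and 1.56 and 0.70 with ethephon, and in HS 3.06 and 5.16 with water and 4.91 and 5.75 with ethephon. Again MS_T and LS_CK were the low groups and overlapped with each other, while MS_CK was highest and HS_T, LS_T and HS_CK followed, each overlapping with the next. The unigene length implied by its count and FPKM varied between 482 and 1570 bases among libraries, so its count and FPKM do not rise in proportion. The length implied for c79203_g1 stayed between 674 and 687. Its counts, on which the tests ran, were 20 and 13 with water and 180 and 72 with ethephon in LS, 163 and 280 against 53 and 21 in MS, and 81 and 171 against 171 and 185 in HS.

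The weakest of the 5 was c58672_g1 (ERF073). Its counts in the first and second libraries were 3 and 4 with water and 22 and 25 with ethephon in LS, 1 and 1 against 4 and 4 in MS, and 10 and 1 against 3 and 17 in HS. LS_T alone was above every other group on the FPKM scale, with 4.82 and 5.61 FPKM against at most 3.97 elsewhere. On normalised counts LS_T and HS_T overlapped, since the second HS_T library had 0.892 CPM and the first LS_T library 0.883. The length implied by count and FPKM varied between 142 and 244.5 bases among libraries. The unigene passed the filter on low counts with 3 libraries over the limit of 0.456 CPM, the second HS_T library and both LS_T libraries, so its test in LS rests on libraries that also let it pass. The HS replicates went apart by 8.70-fold in HS_CK and 6.44-fold in HS_T.

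Both unigenes labelled ERF094 had their lowest values in MS_CK and their highest in HS_T and LS_T. In LS, c77833_g1 had 1.38 and 2.87 FPKM with water and 8.01 and 12.6 with ethephon. It had 0.25 and 0.55 FPKM against 3.09 and 2.86 in MS, and 2.45 and 4.36 against 16.7 and 16.5 in HS. For c92758_g6 the LS libraries had 0.64 and 2.59 FPKM with water and 13.0 and 17.4 with ethephon. Those of MS had 0.00 and 0.49 FPKM against 2.64 and 4.22, and those of HS 5.46 and 4.46 against 16.9 and 17.8. The length implied by count and FPKM for c92758_g6 was 422.7 and 422.5 bases in LS_CK and 280.9 and 311.1 in LS_T. Its FPKM in LS thus rose more than its count. In MS the implied length went the other way, with 286.9 in the second MS_CK library and 420.2 and 354.5 in MS_T. Within each genotype both ethephon libraries lay above both water libraries for either unigene. After ethephon the MS libraries did not reach the HS_T or LS_T libraries.

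**Figure D1:**
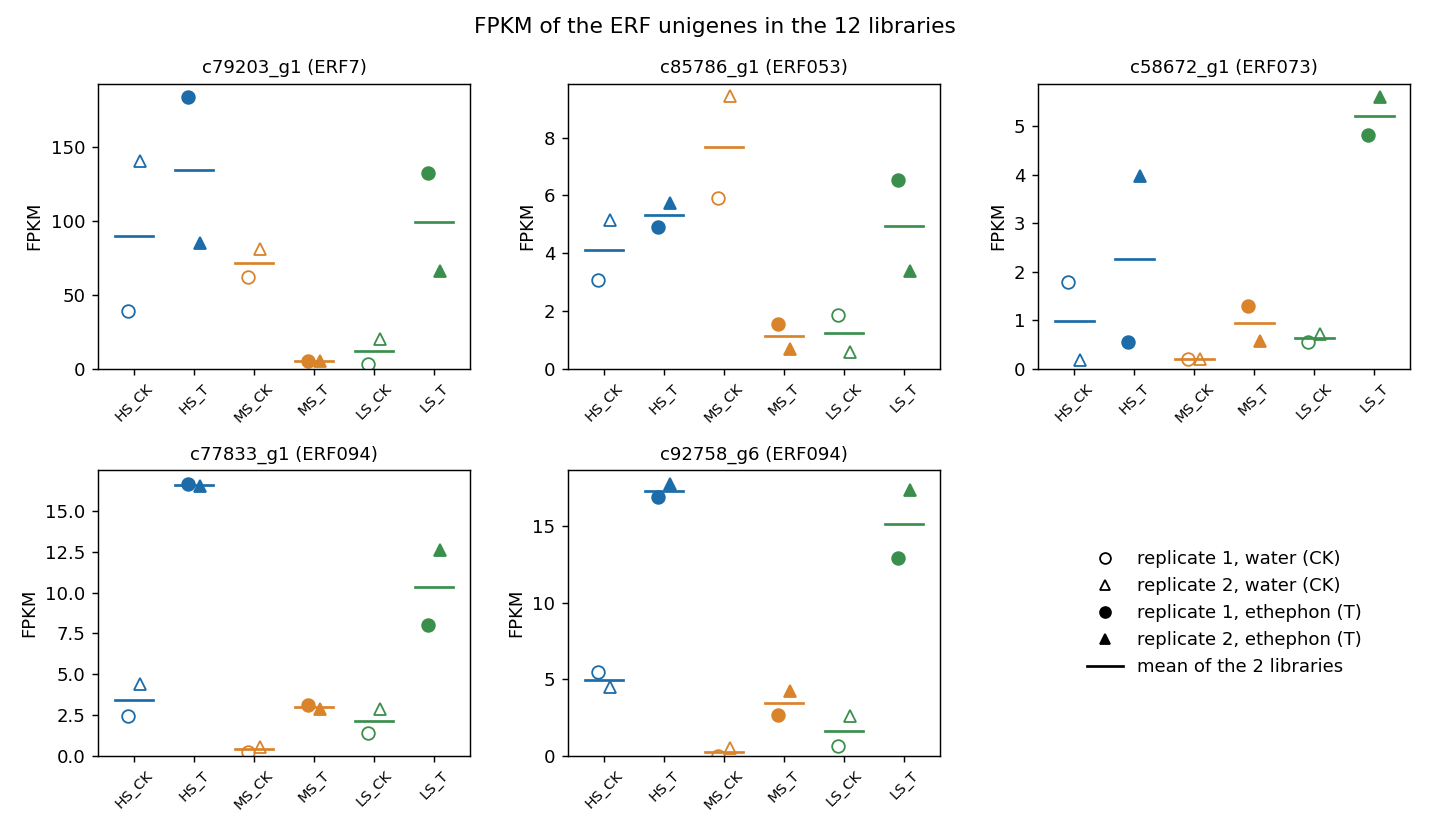
FPKM of the 5 ERF unigenes in the 12 libraries on a linear axis, with 1 panel per unigene, the 6 groups along the x axis and 1 point per library. For c79203_g1 and c85786_g1 the MS_T and LS_CK libraries are the low ones, whereas for c77833_g1 and c92758_g6 the ethephon libraries of each genotype lie above its water libraries.

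The first question was how ethephon changed the ERFs in each genotype. Pairs of groups were compared with the quasi-likelihood test of edgeR on rounded counts, with p-values adjusted by the Benjamini-Hochberg method over all 54433 tested unigenes. A unigene was called when its adjusted p was under 0.005 and its fold change over 2, the limits the study had set for its own test, and an adjusted p under 0.05 with no fold limit served as a looser threshold. With 2 libraries against 2, an exact permutation test of a single value cannot give a p below 0.333, so no such test was made.

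In LS, all 5 ERFs were higher after ethephon, and their libraries did not overlap between the groups. Of these, c58672_g1 had passed the filter on low counts through both LS_T libraries, the higher group here. c79203_g1 (ERF7) rose at the looser threshold from 11.7 ± 11.8 to 99.2 ± 46.5 FPKM (mean ± SD, n = 2), a log2 fold change of 3.15 (SE 0.77, edgeR adjusted p = 0.0279). c85786_g1 (ERF053) rose at that threshold by 3.00 on the log2 scale (SE 0.65, edgeR adjusted p = 0.0166), from 1.24 ± 0.90 to 4.96 ± 2.21 FPKM. The ERF094 unigenes rose at it too. c77833_g1 had a log2 fold change of 2.37 (SE 0.41, edgeR adjusted p = 0.0054), from 2.13 ± 1.05 to 10.3 ± 3.27 FPKM, and c92758_g6 one of 2.80 (SE 0.52, edgeR adjusted p = 0.00773), from 1.62 ± 1.38 to 15.2 ± 3.14 FPKM. c58672_g1 (ERF073) had the log2 fold change 2.85 (SE 0.83), with 47 counts against 7, and missed both thresholds (edgeR adjusted p = 0.0568).

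In counts, 4 of the 5 ERFs passed the looser threshold in LS, which 9.55% of all tested unigenes passed, and 0 were called by edgeR at the stricter limits, against 2.24% of all unigenes called and 1.91% called higher. Of all tested unigenes, 22.5% had LS_T libraries above both LS_CK libraries. At an unadjusted p under 0.05 the count was 5, against 24.5% of all unigenes. Because both LS_T libraries let c58672_g1 pass the filter, 4 ERFs remain in this count, and 4 of those higher without overlap, when it is set aside. DESeq2's Wald test called 3 (c85786_g1, c77833_g1 and c92758_g6), against 5.84% of the unigenes to which it gave an adjusted p, and limma on log2(FPKM + 1) called 1 (c92758_g6), against 2.19%. The limma call used FPKM, which for c92758_g6 rose more than its count in LS. The median log2 fold change was 2.85 over the 5 ERFs, the value of c58672_g1, and -0.08 over all tested unigenes. The looser call of c79203_g1 ended without the first LS_T library (log2 fold change 2.64, edgeR adjusted p = 0.0912) or the first LS_CK library (2.38, edgeR adjusted p = 0.129). With the first LS_CK library left out, the edgeR adjusted p was 0.0826 for c85786_g1, 0.0575 for c77833_g1 and 0.0561 for c92758_g6, and c85786_g1 also missed 0.05 without the second LS_CK library (0.137) or the first LS_T library (0.0748).

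In MS, none of the ERFs passed a threshold, and their values lay on both sides of the water controls. c79203_g1 (ERF7) was lower after ethephon, at 5.30 ± 0.26 FPKM against 71.4 ± 12.9 (n = 2), a log2 fold change of -3.83 (SE 0.81, edgeR adjusted p = 0.0676). c85786_g1 (ERF053) was lower as well, at 1.13 ± 0.61 against 7.68 ± 2.48 FPKM, with -2.84 (SE 0.60, edgeR adjusted p = 0.0676). The pair labelled ERF094 was higher. c77833_g1 had 2.98 ± 0.16 against 0.40 ± 0.21 FPKM and a log2 fold change of 2.78 (SE 0.55, edgeR adjusted p = 0.0578). c92758_g6 had 67 counts in MS_T and 3 in MS_CK, a ratio of 17.4 with a counting interval (95%, which leaves out the spread between plants) of 5.70 to 86.4, and an edgeR adjusted p of 0.0626. c58672_g1 (ERF073) had 8 counts against 2, a ratio of 3.11 with a counting interval of 0.621 to 30.1.

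For all 5 ERFs the MS_T and MS_CK libraries did not overlap, which held for 41.9% of all tested unigenes, but none passed either threshold. edgeR called 0 of the 5 and 0.00184% of all unigenes in MS. At an unadjusted p under 0.05 the count was 4, against 12.3% of all unigenes. DESeq2's Wald test called 3 (c79203_g1 lower, c77833_g1 and c92758_g6 higher), against 1.82% of its unigenes, and limma on log2(FPKM + 1) called 0, against 0.0257%. The median log2 fold change of the 5 was 1.55, again the value of c58672_g1, against 0 over all tested unigenes. In a fit of the MS libraries alone, c79203_g1 was called (edgeR adjusted p = 0.000152). There c77833_g1 (0.0223), c92758_g6 (0.0292) and c85786_g1 (0.0301) passed the looser threshold. The share of all unigenes that passed in that fit was not computed.

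In HS, the ERF094 pair was higher after ethephon, with libraries that did not overlap, while the rest overlapped. c77833_g1 had 16.6 ± 0.11 FPKM in HS_T against 3.41 ± 1.35 in HS_CK, a log2 fold change of 2.25 (SE 0.39, edgeR adjusted p = 0.179). c92758_g6 had 17.4 ± 0.61 against 4.96 ± 0.71 FPKM and a log2 fold change of 2.00 (SE 0.48, edgeR adjusted p = 0.473). Smaller differences were estimated for c79203_g1, at 0.57 (95% interval -0.966 to 2.11), c85786_g1, at 0.54 (-0.647 to 1.73), and c58672_g1, at 0.98 (-0.895 to 2.85), and the intervals of these 3 leave room for a change either way. edgeR called 0 of the 5 in HS, and 0.011% of all tested unigenes. Non-overlapping libraries were found for 28.4% of all unigenes. At an unadjusted p under 0.05 the count was 2, against 4.02% of all unigenes. DESeq2's Wald test called 2 (c77833_g1 and c92758_g6), against 0.242% of its unigenes, and limma on log2(FPKM + 1) called 0, against 0.0129%. DESeq2 gave c58672_g1 no adjusted p for ethephon in any genotype or for the differences in effect. The median log2 fold change of the 5 was 0.98, against 0 over all unigenes.

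**Figure D2:**
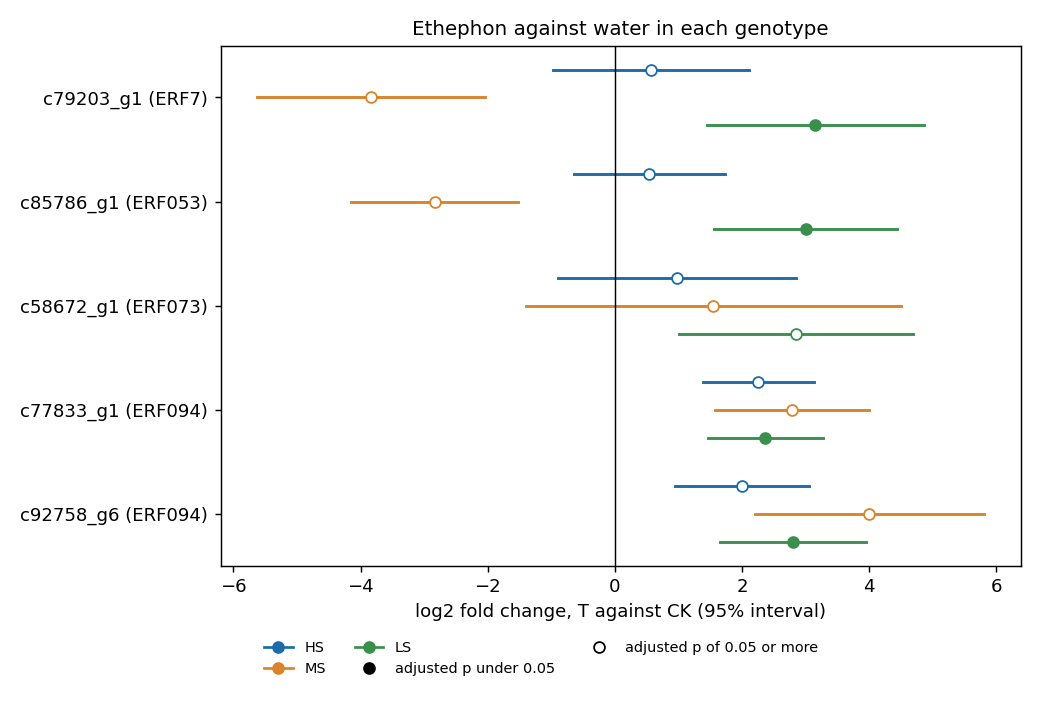
Log2 fold change of ethephon against water for the 5 ERF unigenes in HS, MS and LS, as fitted by edgeR, with bars for the 95% interval. The values of c79203_g1 are 0.57 in HS, -3.83 in MS and 3.15 in LS, and those of c77833_g1 are 2.25, 2.78 and 2.37. The fitted values of c58672_g1 and c92758_g6 in MS rest on 2 and 3 counts in water.

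The second question was whether the ethephon effect differed between genotypes, which was tested as the difference of log2 fold changes in the same model. Between LS and MS it differed at the looser threshold for c79203_g1 (ERF7), by 6.99 (95% interval 4.51 to 9.46, edgeR adjusted p = 0.00973), and for c85786_g1 (ERF053), by 5.84 (3.88 to 7.79, edgeR adjusted p = 0.00773). Both were higher in LS_T and lower in MS_T than their water controls in every library. edgeR called 0 of the 5 ERFs at the stricter limits for this difference, against 0.351% of all unigenes, and 2 of the 5 at the looser threshold, against 1.97%. At an unadjusted p under 0.05 the count was 2, against 13.6%, and c79203_g1 and c85786_g1 were called by DESeq2's Wald test, against 2.71% of its unigenes, whereas limma called 0, against 0.237%. Leaving out the second MS_T library ended the looser call of c79203_g1 (edgeR adjusted p = 0.0743), and no other single library did so for either unigene.

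No such difference between LS and MS was detectable for the ERF094 pair. The effect in LS minus that in MS was -0.41 (95% interval -1.93 to 1.11) for c77833_g1 and -1.20 (-3.56 to 1.15) for c92758_g6, whose value rests on 3 counts in MS_CK, so these data do not exclude differences of 2-fold or more. For c58672_g1 the interval ran from -2.99 to 5.59.

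Between LS and HS the effect on c79203_g1 was larger in LS by 2.58 (95% interval 0.336 to 4.82) and that on c85786_g1 by 2.46 (0.587 to 4.33), but neither passed a threshold (edgeR adjusted p = 0.344 and 0.261). The differences were 0.11 (-1.10 to 1.33) for c77833_g1, 0.80 (-0.749 to 2.34) for c92758_g6 and 1.87 (-0.842 to 4.58) for c58672_g1. Between MS and HS the effect was more negative in MS for c79203_g1, by -4.41 (-6.75 to -2.07, edgeR adjusted p = 0.530), and for c85786_g1, by -3.38 (-5.15 to -1.61, edgeR adjusted p = 0.521). In both comparisons edgeR called 0 of the 5 ERFs, with 2 at an unadjusted p under 0.05 and 0 by DESeq2 or limma. Of all tested unigenes, 0.0386% were called between LS and HS and 11.7% had an unadjusted p under 0.05, and between MS and HS 0% and 5.84%. DESeq2 called 2.24% of its unigenes between LS and HS and 0.168% between MS and HS, and limma 0.0514% and 0%. These 3 differences share their groups and are not independent of each other.

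The variation in log2 CPM over the 12 libraries was also split by the design. The interaction of genotype and treatment held 59.1% of the variation of c79203_g1 and 62.2% of that of c85786_g1, and treatment alone held 0.219% and 0.393%. For c77833_g1 treatment held 49.8% and the interaction 0.31%, and for c92758_g6 49% and 3.23%. Genotype held between 24.9% and 44.8% for the 5 unigenes. The share left between replicates was 5.13% for c77833_g1, 8.08% for c92758_g6, 12.4% for c85786_g1, 13.1% for c79203_g1 and 28% for c58672_g1.

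The third question was how the genotypes differed without ethephon. In water, c85786_g1 (ERF053) was higher in HS than in LS, with a log2 fold change of 3.14 (SE 0.65, edgeR adjusted p = 0.00394), and c79203_g1 (ERF7) passed the looser threshold with 3.13 (edgeR adjusted p = 0.00944). In FPKM, c85786_g1 had 4.11 ± 1.485 in HS_CK and 1.24 ± 0.90 in LS_CK. Its implied length was 482 and 948 bases in LS_CK, 1113 and 1534 in HS_CK and 1346 and 1392 in MS_CK. Between LS and the others its counts thus differed more than its FPKM. The rest were not called between HS and LS, with log2 fold changes of 1.22 (95% interval 0.013 to 2.43) for c92758_g6, 0.80 (-0.134 to 1.74) for c77833_g1 and 0.79 (-1.41 to 2.98) for c58672_g1. Thus 1 of the 5 was called higher in HS_CK than in LS_CK, against 6.41% of all tested unigenes called higher and 15.3% called in either direction, and 2 passed the looser threshold, against 35.4%. Between MS and LS in water, c85786_g1 was higher in MS by 3.99 (edgeR adjusted p = 0.00113), the 1 ERF called there, against 4.97% of all unigenes called higher and 13.4% in all. At the looser threshold, c85786_g1 aside, c79203_g1 was higher in MS by 2.74 (edgeR adjusted p = 0.0187), and the ERF094 pair was lower in MS than in LS, with -2.31 for c77833_g1 (edgeR adjusted p = 0.0102) and, for c92758_g6, 3 counts against 31 (edgeR adjusted p = 0.0256). These 4 of the 5 passed that threshold, against 31.4% of all unigenes.

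Between HS and MS in water it was the ERF094 pair that differed. c77833_g1 was higher in HS by 3.11 on the log2 scale (SE 0.54, edgeR adjusted p = 0.00205). c92758_g6 had 64 counts in HS_CK and 3 in MS_CK, a ratio of 20.3 with a counting interval of 6.64 to 101 (edgeR adjusted p = 0.00333). These 2 of the 5 were called higher, against 5.58% of all unigenes called higher and 10.2% called in all. c79203_g1 had a log2 fold change of 0.39 (95% interval -1.15 to 1.93) and c85786_g1 one of -0.85 (-2.04 to 0.337), and neither passed a threshold between HS_CK and MS_CK. c58672_g1 had 11 counts in HS_CK and 2 in MS_CK.

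After ethephon, none of the 5 ERFs passed a threshold between HS and LS, while 4 were lower in MS than in HS and 5 lower in MS than in LS at the looser threshold. Between HS_T and LS_T edgeR called 0 of the 5, against 14.5% of all tested unigenes, with 0 at an unadjusted p under 0.05, against 45.2%, and 0 by DESeq2 and limma, which called 15.3% and 12.4% of all unigenes. The adjusted p-values of edgeR lay between 0.170 and 0.576, and the widest intervals, those of c58672_g1 (-2.66 to 0.491) and c79203_g1 (-0.984 to 2.09), still allow differences of more than 4-fold. Between HS_T and MS_T all 5 had positive log2 fold changes. c79203_g1, at 4.80 (SE 0.84, edgeR adjusted p = 0.00185), and c77833_g1, at 2.58 (SE 0.40, edgeR adjusted p = 0.000893), were called, against 6.35% of all unigenes called higher and 11.9% called in all. c92758_g6 at 2.24 (edgeR adjusted p = 0.00531) and c85786_g1 at 2.53 (edgeR adjusted p = 0.00893) passed the looser threshold, as did 31.5% of all unigenes, and c58672_g1 at 1.67 did not (edgeR adjusted p = 0.180).

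Between MS_T and LS_T all 5 ERFs were lower in MS at the looser threshold, which 32.7% of all tested unigenes passed in either direction. c79203_g1 with -4.24 (edgeR adjusted p = 0.0027) and c77833_g1 with -1.89 (edgeR adjusted p = 0.0041) were called, against 9.39% of all unigenes called lower and 14.9% called in all. The log2 fold changes of the others were -2.76 for c58672_g1, -1.85 for c85786_g1 and -1.82 for c92758_g6, with edgeR adjusted p-values of 0.0241, 0.0349 and 0.0138. c58672_g1 had passed the filter on low counts through both LS_T libraries, the higher group here, so 4 ERFs remain when it is set aside.

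Each of the 8 calls between genotypes was lost without some single library, although all kept their direction and an edgeR adjusted p under 0.05. The call of c85786_g1 between HS_CK and LS_CK held without the first HS_CK library, and its edgeR adjusted p was 0.0218 to 0.0384 when any of the other 3 was left out. That between MS_CK and LS_CK held without the first MS_CK library and otherwise reached 0.00867 to 0.0152. The call of c77833_g1 between HS_CK and MS_CK held without the first HS_CK library and otherwise reached 0.00851 to 0.0277, and that of c92758_g6 reached 0.00838 to 0.0309 with any library left out, its fitted log2 fold change being 3.28 without the first MS_CK library and 8.12 without the second. Between HS_T and MS_T, the calls of c79203_g1 and c77833_g1 held without the second HS_T library and otherwise reached 0.00522 to 0.0261. Between MS_T and LS_T, the call of c77833_g1 held without the first LS_T library and otherwise reached 0.0250 to 0.0414, and that of c79203_g1 reached 0.00524 to 0.0312 with any library left out.

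Some of the comparisons that passed the looser threshold alone did not pass it without a single library. In water, c79203_g1 between HS and LS had an edgeR adjusted p of 0.0808 without the second HS_CK library, and between MS and LS one of 0.0770 without the second MS_CK library and 0.0882 without the first LS_CK library. The ERF094 pair between MS and LS missed it without the first MS_CK library (0.0903 for c77833_g1 and 0.144 for c92758_g6) or the second LS_CK library (0.0861 and 0.256). After ethephon, c85786_g1 missed it without the second MS_T library, both between HS and MS (0.0736) and between MS and LS (0.218), and in the latter also without the first LS_T library (0.212). Between MS_T and LS_T, c92758_g6 had 0.0813 and 0.0621 without the first and the second MS_T library and 0.0856 without the second LS_T library. c58672_g1 had 0.0785, 0.149 and 0.105 without the same libraries.

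**Figure D3:**
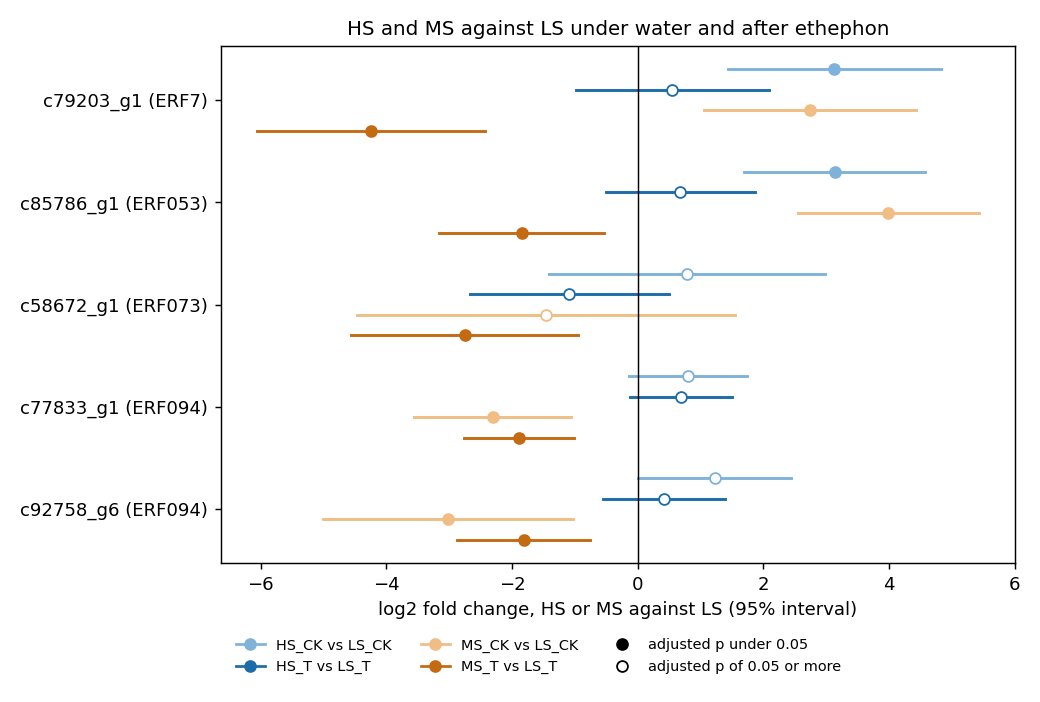
Log2 fold changes between genotypes for the 5 ERF unigenes, as fitted by edgeR, with bars for the 95% interval, in water and after ethephon. Between MS and LS, c79203_g1 has 2.74 in water and -4.24 after ethephon, and c85786_g1 has 3.99 and -1.85.

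The patterns of the 5 over the libraries were then set side by side. Likeness was measured as the root mean square difference of log2 CPM over the 12 libraries, after each unigene was centred on its own mean, so that 0 means the same pattern. Of all tested unigenes outside their own components, c77833_g1 and c92758_g6 were each other's nearest, at 0.511, where the median distance to all tested unigenes was 1.86 for c77833_g1 and 2.18 for c92758_g6. A unigene that did not vary at all would lie close to these medians, at 1.75 and 2.08. Among the pairs of ERFs, the next nearest were c79203_g1 and c85786_g1 at 1.11, and then c58672_g1 and c77833_g1 at 1.28. The remaining pairs lay between 1.47 and 2.53.

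The nearest of all tested unigenes to c79203_g1 was c49710_g1, at 0.285, and the one nearest to c85786_g1 was c83887_g1, at 0.404. c49710_g1 had 1.37 and 9.77 FPKM in LS_CK and 50.6 and 27.9 in LS_T, and 22.4 and 31.98 in MS_CK and 3.32 and 3.38 in MS_T. It thus had the same low groups as c79203_g1, and its second LS_CK library was also the higher one. Such likeness follows from the choice, because c49710_g1 was picked as the nearest over these same libraries. The same holds for the unigenes nearest to c85786_g1 and c58672_g1. For c83887_g1 the LS_CK libraries had 1.98 and 1.90 FPKM and the LS_T libraries 13.4 and 8.32, and MS_CK had 8.08 and 19.3 and MS_T 2.79 and 1.44. The nearest to c58672_g1 was c116512_g1, at 0.591, whose highest value was 2.24 FPKM, in the second LS_T library. The files give no name for these unigenes, and the points share library and depth.

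**Figure D4:**
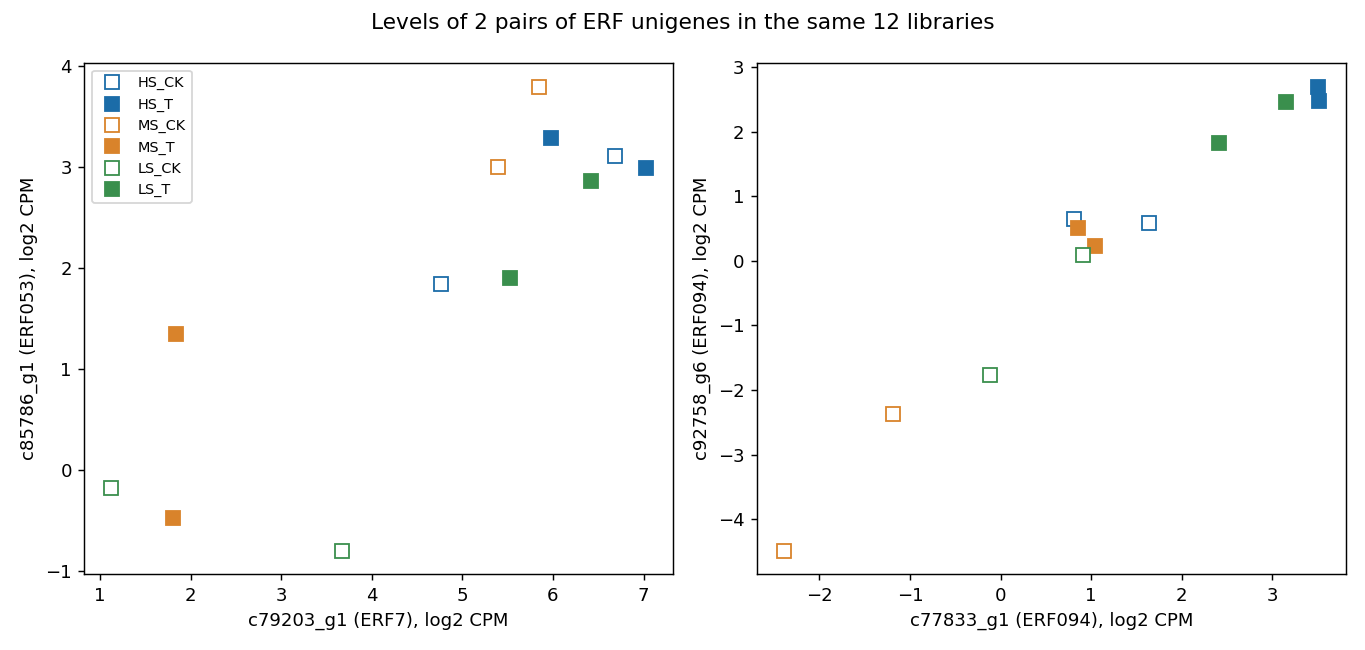
Log2 CPM of ERF unigenes plotted against each other, 1 point per library, with the groups in different colours. The points of c77833_g1 and c92758_g6 follow each other over the 12 libraries, with a root mean square difference of 0.511 after centring, against 1.11 for c79203_g1 and c85786_g1.

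The assembly put 10 further unigenes into the same components as the ERF094 pair, c77833_g2 to c77833_g6 and c92758_g1 to c92758_g5, and none beside the other 3 ERFs. Unigenes of 1 component share sequence, so reads may have been divided among them, or left out if only uniquely mapped reads were counted. Their values are therefore uncertain. The counts of the 5 ERFs were all whole numbers. c77833_g2 followed c77833_g1 in direction, with 48 counts in HS_T against 13 in HS_CK, 45 in MS_T against 6 in MS_CK, and 12 in LS_T against 2 in LS_CK. c77833_g6 did so with 30 against 4, 21 against 3 and 11 against 0 counts, in the same order. None of these differences was called, and that of c77833_g6 in LS passed the looser threshold (edgeR adjusted p = 0.0446). c77833_g6 passed the filter on low counts through ethephon libraries alone, both of HS_T and the first of MS_T. Its higher ethephon counts in HS and MS are thus in part fixed by the filter. c77833_g2 passed it through both libraries of HS_T and of MS_T and the first of HS_CK, so the same limit applies to it.

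c77833_g3 and c77833_g4 were counted in HS libraries alone. c77833_g3 had 28 counts in HS_CK and 19 in HS_T, c77833_g4 had 24 and 33, and both had 0 in the 8 libraries of MS and LS. Against a floor of 3 counts over the 4 libraries of a genotype, c77833_g3 was at least 17.4-fold higher in HS than in either of the others and c77833_g4 at least 21.2-fold higher than in MS. Both passed the filter on low counts through HS libraries alone, the higher group here, so the difference is in part fixed by the filter. Neither was called between HS and another genotype, with edgeR adjusted p-values of 0.00509 to 0.0132.

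The mates of c92758_g6 gave mixed values. c92758_g2, with 68 to 251 counts in every library, had 6.70 ± 0.96 FPKM in LS_CK and 5.67 ± 2.24 in LS_T (n = 2), and 5.88 ± 0.63 in HS_CK and 7.01 ± 0.39 in HS_T. c92758_g5 had 138 counts in MS_T against 38 in MS_CK (edgeR adjusted p = 0.0811), 108 in HS_T against 57 in HS_CK (0.907) and 80 in LS_T against 77 in LS_CK (0.751). c92758_g4 had 16 counts in LS_T and 2 in LS_CK (edgeR adjusted p = 0.0486), and 24 in both MS groups. c77833_g5, c92758_g1 and c92758_g3 had at most 14 counts over the 12 libraries and were not tested. When the counts of a component were summed, the log2 fold change between HS_CK and MS_CK became -0.019 for the component of c92758_g6 and was 2.86 for that of c77833_g1 (edgeR adjusted p = 0.0010). The summed component of c92758_g6 had smaller log2 fold changes with ethephon than the unigene alone, 0.65 in LS (edgeR adjusted p = 0.0243), 0.55 in MS (0.162) and 0.75 in HS (0.296), and 0.18 between HS_T and MS_T (0.393).

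Another unigene that the text of the study annotates as an ERF, c81582_g1, differed from these 5 in its pattern. With water it had 13.6 ± 0.95 FPKM in HS, 10.46 ± 0.0071 in MS and 5.10 ± 0.31 in LS, and with ethephon 9.995 ± 2.36, 12.2 ± 3.27 and 3.47 ± 0.58 (n = 2 each). It was called higher in HS than in LS, 3.03-fold in water and 3.12-fold after ethephon, and higher in MS than in LS, 2.25-fold and 3.435-fold (edgeR adjusted p = 0.000381, 0.000415, 0.00259 and 0.000229). Its log2 fold changes with ethephon were -0.42 in HS, 0.14 in MS and -0.47 in LS, none of which passed a threshold. By quantitative PCR, another measure, the study reported that its transcript rose with ethylene in every genotype. The estimates here were negative in HS and LS, and the reason for the difference was not tested.

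A list of transcription factor unigenes, c81582_g1 among them, was taken from the study's text, which chose them on these samples, so their counts are no independent evidence. All 28 were tested, and edgeR called 0 of them with ethephon in HS, MS or LS, against 0.011%, 0.00184% and 2.24% of all unigenes. Between genotypes in water it called 11 higher and 13 lower in HS than in LS, against 6.41% and 8.94% of all unigenes. It called 7 higher and 9 lower in HS than in MS, against 5.58% and 4.59%, and 4 higher and 7 lower in MS than in LS, against 4.97% and 8.42%. After ethephon the counts were 10 and 12 between HS and LS (6.31% and 8.16%), 9 and 8 between HS and MS (6.35% and 5.59%), and 4 and 5 between MS and LS (5.54% and 9.39%). c101031_g1, annotated as a heat shock factor, was called between HS_T and MS_T, with 123 ± 24.5 against 25.8 ± 7.43 FPKM. c97708_g1, annotated as a WRKY factor, was called lower in HS than in LS both in water, with 10.2 ± 0.0071 against 35.2 ± 0.65 FPKM, and after ethephon, with 21.1 ± 7.95 against 56.0 ± 5.00.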

How the data were processed

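RNA of developing stem was sequenced in 12 libraries, 2 biological replicates of water and ethephon in each of 3 genotypes. The members and lists were chosen with earlier results of these data known.

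Per the study's methods, the authors removed adapters and short or low-quality reads, pooled what was left for a Trinity assembly without a reference genome, and let the longest transcript of a subcomponent stand for it as a unigene. For the expected count of each unigene the authors aligned the reads with RSEM. The methods also state that abundance rested on reads that mapped uniquely. The deposited counts are not scaled between libraries. The authors made FPKM from them with the unigene length and the mapped fragments, and which length was used is not given in the sources used here. Technical replicates had been merged. The study's own test, DEGseq, was not run, since it does not use the spread between replicates.

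Counts were rounded and analysed in R 4.3.3 with edgeR 4.0.16 (filterByExpr with a minimum count of 10, TMM factors of 0.919 to 1.09, glmQLFit and glmQLFTest, 1 coefficient per group, all 12 libraries, 6 residual degrees of freedom). The biological coefficient of variation was 0.207. Standard errors were taken from each estimate and its F value (the absolute log2 fold change over the root of F). P-values were adjusted by the Benjamini-Hochberg method over 54433 unigenes. The alternatives used DESeq2 1.42.0, limma 3.58.1 on log2(FPKM + 1) and log2(FPKM + 0.1), and the settings in the closing section. Figures were drawn with matplotlib 3.10.9. The edgeR, DESeq2 and limma fits were tested on simulated data first. Library totals of 19765600 to 28747100 counts leave a unigene with under about 10 counts to counting error, and counting intervals cover that error only.

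Named are the 5 ERF unigenes, the other unigenes of their assembly components, c81582_g1, c101031_g1 and c97708_g1, which the study's text annotates together, and for each ERF the tested unigene outside its component with the smallest root mean square difference of centred log2 CPM. Sequences, annotation and sucrose contents were not analysed here.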

Additional observations from a re-analysis of the deposited data

Results flagged for a closer look

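Among the differences in ethephon effect between genotypes, those of c79203_g1 (ERF7) and c85786_g1 (ERF053) between LS and MS call for a closer look, because both LS_T libraries lay above both LS_CK libraries while both MS_T libraries lay below both MS_CK libraries. The difference of log2 fold changes was 6.99 for c79203_g1 (edgeR adjusted p = 0.00973) and 5.84 for c85786_g1 (edgeR adjusted p = 0.00773). Both passed an adjusted p of 0.05 and missed the limit of 0.005.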

How the results depend on the processing

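Main counts of called ERFs were 0 for ethephon in each genotype, between HS_T and LS_T and for the differences in effect, 1 for HS_CK vs LS_CK and MS_CK vs LS_CK, and 2 for HS_CK vs MS_CK, HS_T vs MS_T and MS_T vs LS_T. At an adjusted p under 0.05 with no fold limit they were 4 (LS ethephon), 4 (MS_CK vs LS_CK), 2 (HS_CK vs LS_CK), 5 (MS_T vs LS_T), 4 (HS_T vs MS_T) and 2 (LS minus MS). DESeq2's Wald test gave 2, 3 and 3 for ethephon in HS, MS and LS, 2 for HS_CK vs LS_CK and for MS_CK vs LS_CK, 4 for HS_T vs MS_T, 3 for MS_T vs LS_T and 2 for LS minus MS, and its size factors in edgeR gave 1 for LS ethephon. With every unigene of at least 1 count, the spread estimate of edgeR was shared fully among 156702 unigenes, so that a unigene's own spread did not enter. The counts were then 2, 4 and 5 for ethephon in HS, MS and LS, 2 for HS_CK vs LS_CK, 4 for MS_CK vs LS_CK and HS_T vs MS_T, 5 for MS_T vs LS_T, and 2 for each difference in effect. The share of all unigenes called in that fit was not computed, so these counts cannot be weighed. Both fits with the bias-adjusted deviance were added after seeing the data. That deviance gave 2 for LS ethephon and 3 for HS_T vs MS_T, and without the filter 0 for HS_CK vs LS_CK, HS_CK vs MS_CK and MS_T vs LS_T and 1 for HS_T vs MS_T. A fit of only the libraries compared gave 1 for MS ethephon, 0 for HS_CK vs MS_CK, 3 for HS_T vs MS_T, 4 for MS_T vs LS_T and 2 for LS minus MS. limma on log2(FPKM + 1) gave 1 for LS ethephon, 0 for HS_CK vs LS_CK and 3 for HS_T vs MS_T, and on log2(FPKM + 0.1) 0 for LS_CK against HS_CK and against MS_CK and 1 for MS_T vs LS_T. Counts summed per component gave 1 for LS ethephon, 0 for HS_CK vs LS_CK, and 1 for HS_CK vs MS_CK and MS_T vs LS_T. Shares of all unigenes called were computed for the main fit. For DESeq2 and limma on log2(FPKM + 1) they cover ethephon, HS_T vs LS_T and the differences in effect. Other counts here and below have no such share beside them and are no evidence about the ERFs. Where no value or construction is named, the cause was not tested.

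The replicate numbers share no stated origin, and the deviations of same-numbered libraries correlated between -0.147 and 0.401 over 15 pairs of groups. A replicate block gave 2 called ERFs for LS ethephon, 2 for MS_CK vs LS_CK and 3 for HS_T vs MS_T. The crossed pairing of MS_T and LS_T, added after seeing the data, left 2.

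With 1 library left out, counts of called ERFs ranged from 0 to 2 for HS_CK vs LS_CK and HS_T vs MS_T, from 0 to 1 for HS_CK vs MS_CK, MS_CK vs LS_CK and MS_T vs LS_T, and stayed at 0 elsewhere. Directions that turned gave log2 ranges of -1.42 to 1.57 (HS_CK vs LS_CK), -0.84 to 3.19 (HS ethephon), -0.15 to 2.52 (HS_T vs MS_T), -0.34 to 3.69 (LS minus HS) and -1.64 to 2.39 (MS minus HS) for c58672_g1. They were -0.37 to 0.74 (LS minus HS), -1.23 to 0.22 (LS minus MS) and -0.018 to 1.41 (MS minus HS) for c77833_g1, -0.089 to 1.84 (HS ethephon), -0.87 to 1.06 (HS_CK vs MS_CK) and -0.034 to 1.07 (HS_T vs LS_T) for c79203_g1, and -4.99 to 0.13 (LS minus MS) for c92758_g6. On log2(FPKM + 1), limma turned c77833_g1 to -0.16 (LS minus HS), 0.36 (LS minus MS) and -0.52 (MS minus HS) and c92758_g6 to 0.89 (LS minus MS), and on log2(FPKM + 0.1) c77833_g1 to -0.030 (LS minus HS). Component sums, which add the counts of its mates, turned c92758_g6 to -0.019 (HS_CK vs MS_CK), 0.20 (MS_CK vs LS_CK), 0.10 (MS_T vs LS_T), -0.094 (LS minus HS), 0.11 (LS minus MS) and -0.20 (MS minus HS). None of the turned values had been called except c92758_g6 between HS_CK and MS_CK.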
